A study of Mus musculus with 18 samples.

Results

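Organoids from the middle of the mouse colon were compared with organoids from the proximal colon in the proliferative control medium, over all genes with a value of at least 1 FPKM (a fragment count divided by gene length and by library size) in at least 3 of the 6 libraries. That rule kept 11571 of the 56748 genes in the deposited table, and 10367 of those kept were protein-coding. The series holds 18 RNA sequencing libraries of colon organoids, which are three-dimensional cultures of gut epithelium, from the proximal, mid and distal colon, with 3 libraries in each of 6 groups. Control cultures received ENR + Wnt3a CM, a medium the labels tie to the proliferative state. The other groups received a differentiation medium in its place, and the media were applied 3 days after passaging. Both groups compared here were cultured in the control medium and differed, per the labels, only in the region of origin. The strain, sex, age and number of mice are not given in the sources used here, and neither is whether replicates 1 to 3 came from separate animals or cultures, so p-values measure only the spread between these libraries.

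The 6 libraries held 13090322 to 18504587 recovered reads, and mitochondrial genes took 2.26% to 2.67% of reads in the mid libraries and 2.01% to 2.09% in the proximal ones. All 11 epithelial marker genes passed the filter, and their summed level was 6781 to 8573 FPKM in mid and 7270 to 8918 FPKM in proximal libraries. None of the 12 fibroblast, 12 immune and endothelial, and 12 neural and muscle markers passed it, and the highest single value among them was 1.24 FPKM, for Vim. Proximal replicate 1 stood apart from its group. Its correlation over log2(FPKM + 1) was 0.969 and 0.964 with proximal replicates 2 and 3, which correlated at 0.990 with each other, while the mid libraries correlated at 0.975 to 0.985. The first principal component of the 6 libraries held 70.3% of the variance and separated the regions, with proximal replicate 1 at 17.3, the other proximal libraries at 35.0 and 37.5, and the mid libraries at -34.9 to -23.7.

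The colon epithelium keeps a memory of its position along the gut, and the Hox genes are the best known carriers of that positional identity. These transcription factor genes lie in 4 clusters, named A to D, and within a cluster the genes of high number act towards the tail end of the body. At the base of the colonic crypts, Wnt-dependent stem cells divide and give rise to absorptive colonocytes, mucus-secreting goblet cells and hormone-secreting enteroendocrine cells, and the proportions and products of these cells differ along the colon.

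Between the regions, 1668 of the 11571 genes (14.4%) differed at a Benjamini-Hochberg adjusted p under 0.05 in limma. In mid organoids 1005 of them (8.69%) were higher and 663 (5.73%) lower, and the median log2 fold change over all genes tested was 0.02. Fold changes are given as mid minus proximal on the log2(FPKM + 1) scale with the standard error (SE) of the fit, which understates the change of genes with low values. A change of at least 1 on that scale was found for 666 of the genes called, 421 of them higher and 245 lower. In 1650 of the 1668 the 3 mid values and the 3 proximal values did not overlap, and 40.9% of all genes tested showed no overlap. The filter brought in 240 genes that were under 1 FPKM in every proximal library and 151 that were under 1 FPKM in every mid library. Of the 10195 genes at 1 FPKM or more in all 6 libraries, 1176 (11.5%) were called. The count fell to 978 without mid replicate 1, 958 without mid replicate 2, 913 without proximal replicate 2 and 916 without proximal replicate 3, and was 1355 without mid replicate 3 and 1957 without proximal replicate 1. In whole cultures such as these, fewer cells of a type and less RNA per cell cannot be told apart.

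**Figure D1:**
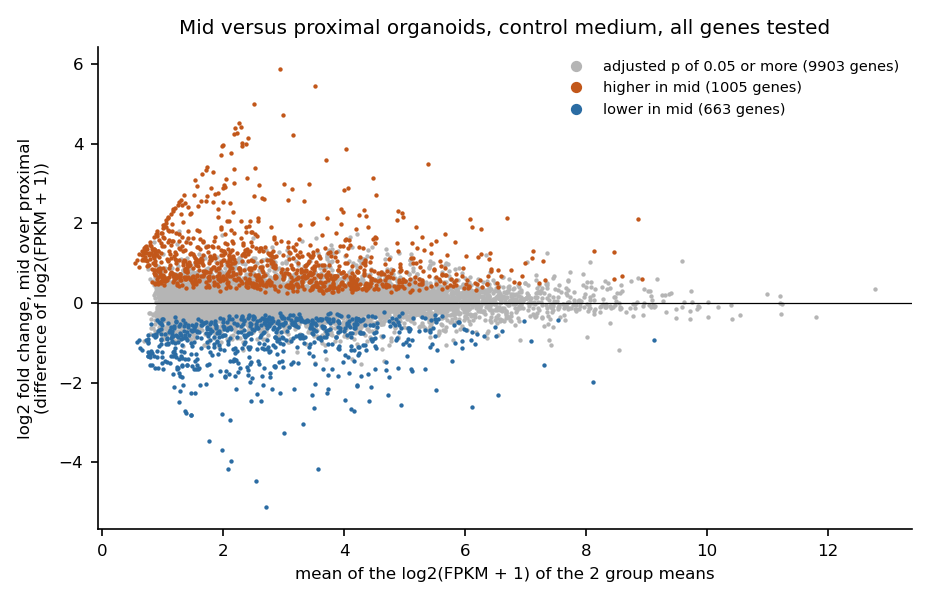
Log2 fold change of mid over proximal organoids in control medium (vertical axis, difference of log2(FPKM + 1)) against the mean level of the gene (horizontal axis, mean of the log2(FPKM + 1) of both group means) for the 11571 genes tested, 1 point a gene. The 1005 genes higher in mid reach further from 0 than the 663 lower ones, and most genes with a change above 2 in size have a mean level under 6.

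Hox genes were among those that differed most, and the A and B clusters went in opposite directions. All 10 HoxA genes that passed the filter were higher in mid organoids, with a median log2 fold change of 2.50, and all were under 1 FPKM in every proximal library, so that they passed through the mid libraries alone. Of 8 HoxB genes that passed, Hoxb13 was higher in mid and the other 7 were lower, 6 of them under 1 FPKM in every mid library. Each of these 18 calls was kept without any one of the 6 libraries and under every scaling tried. No HoxC or HoxD gene passed the filter, and the summed level over either cluster was at most 0.21 FPKM in any of the 6 libraries. On mm39, the build of the deposited table, Hoxa2 to Hoxa13 span chromosome 6 from 52139397 to 52237788, and the expressed HoxB genes span chromosome 11 from 96085142 (Hoxb13) to 96238756 (Hoxb3).

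Hoxb13, the gene at the posterior end of the HoxB cluster, stood at 65.6, 63 and 47 FPKM in mid replicates 1 to 3 and had no read in any proximal library. The fold change was 5.88 ± 0.17 with a limma adjusted p of 1.92e-12, and against a floor of 3 reads over the proximal group the FPKM were at least 2327-fold higher, which allows for counting error only. The rest of the expressed B cluster showed the reverse picture. Hoxb6 was at 0.169, 0.026 and 0.104 FPKM in mid and 46, 32.7 and 35 FPKM in proximal libraries, a fold change of -5.13 ± 0.12 (limma adjusted p 1.3e-13). Hoxb7 had no read in the mid libraries and 17.2, 17.1 and 16.4 FPKM in the proximal ones, at least 524-fold higher in proximal organoids against the same floor. Hoxb8 followed with 0.09, 0.155 and 0.0583 FPKM in mid and 15.7, 12.2 and 11.8 FPKM in proximal libraries. Mid organoids were thus low to silent for each of these anterior and central genes in all 3 libraries, and every proximal library expressed them. Hoxb9, which lies between Hoxb8 and Hoxb13, was the one lower gene that mid organoids clearly kept, at 6.98, 5.7 and 4.98 FPKM against 49.9, 36.1 and 41.2 FPKM (-2.65 ± 0.21, limma adjusted p 3.84e-07). Hoxb4 (-2.82 ± 0.19), Hoxb5 (-2.72 ± 0.1) and Hoxb3 (-1.57 ± 0.11) were also lower, from proximal means of 6.41 ± 1.84, 5.65 ± 0.159 and 1.98 ± 0.148 FPKM (SD, n = 3).

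In the A cluster the difference was largest among the genes of high number. Hoxa10 was at 20.3, 23.3 and 22.7 FPKM in mid libraries and Hoxa13 at 20.9, 19.9 and 19.8 FPKM, and neither had a proximal read, so that the FPKM were at least 1295-fold and at least 871-fold higher in mid. The fold changes were 4.53 ± 0.14 for Hoxa10 and 4.4 ± 0.09 for Hoxa13. Hoxa9 had 4878 reads over the mid group and 1 over the proximal group, a ratio of 3786 in FPKM with a 95% counting interval of 784 to 172568. The mid libraries were close together for these genes, and no proximal library approached them. Hoxa11 was lower than its neighbours at 2.24, 2.43 and 2.84 FPKM in mid and without a read in proximal libraries. Hoxa7 (3.24 ± 0.19), Hoxa5 (2.54 ± 0.22) and Hoxa6 (2.46 ± 0.28) had mid means of 8.7 ± 0.239, 7.58 ± 0.692 and 4.87 ± 0.805 FPKM and proximal means under 1 FPKM. The differences were smallest at the anterior end, where Hoxa3 changed by 1.1 ± 0.11 and Hoxa2 by 0.83 ± 0.16, and both genes had reads in every proximal library. Non-coding RNAs of the clusters, chosen after their values were seen, showed the direction of the genes around them. Hottip, an RNA next to Hoxa13, had a mean of 3.54 ± 0.702 FPKM in mid libraries and Hoxa11os 7.48 ± 0.874 FPKM, both without proximal reads, while Hoxb5os fell from 16.6 ± 5.55 to 0.0839 ± 0.0985 FPKM (SD, n = 3). The labels do not settle whether the libraries kept the strand, so reads of Hoxa11os and Hoxb5os cannot be told apart from those of the Hox genes they overlap.

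**Figure D2:**
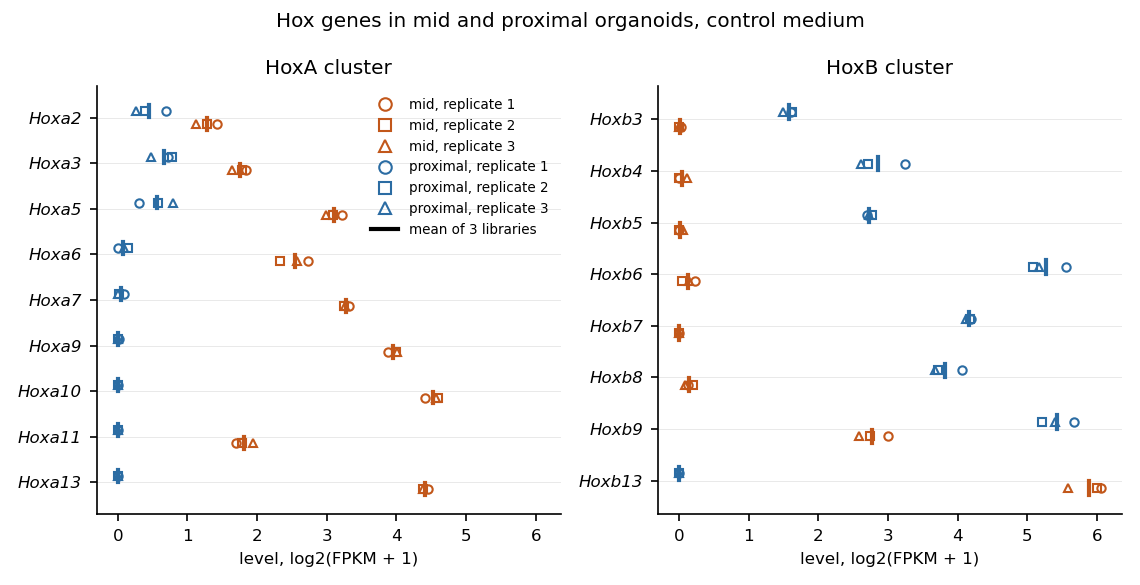
Level of 9 HoxA genes (left) and 8 HoxB genes (right) that passed the filter, as log2(FPKM + 1) on the horizontal axis, in the 3 mid and 3 proximal control-medium libraries. Symbols are libraries and vertical bars are group means. HoxA genes are higher in mid throughout, most at Hoxa9, Hoxa10 and Hoxa13, while Hoxb3 to Hoxb9 are higher in proximal organoids and Hoxb13 has reads in the 3 mid libraries and in none of the 3 proximal ones.

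The promoters of 4 of these genes are shown because neighbours in each cluster moved together, and because the caudal (CDX) factors of the gut are known to bind sites of the type TTTATG. The RefSeq table of build GRCm38.p6 held an entry for 11 of the 18 Hox genes. Capitals mark TTTATG or its reverse complement CATAAA (the search covered both strands, and matches did not overlap) in the 250 bases before the start site, printed 5′ to 3′ on the strand of the gene. Hoxa7 (chr6:52218574-52218823, minus strand) and Hoxa13 (chr6:52260881-52261130, minus strand) were higher in mid, and Hoxb8 (chr11:96281655-96281904, plus strand) and Hoxb4 (chr11:96318017-96318266, plus strand) were lower.
Hoxa7: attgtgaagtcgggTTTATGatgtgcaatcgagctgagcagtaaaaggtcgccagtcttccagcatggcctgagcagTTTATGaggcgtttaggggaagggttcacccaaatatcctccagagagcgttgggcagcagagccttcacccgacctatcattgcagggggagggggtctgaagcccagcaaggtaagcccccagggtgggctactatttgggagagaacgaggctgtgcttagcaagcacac
Hoxa13: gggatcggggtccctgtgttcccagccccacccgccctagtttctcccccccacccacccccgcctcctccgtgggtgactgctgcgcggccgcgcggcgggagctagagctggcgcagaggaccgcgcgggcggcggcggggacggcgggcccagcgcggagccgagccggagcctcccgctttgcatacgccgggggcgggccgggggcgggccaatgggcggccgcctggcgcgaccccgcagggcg
Hoxb8: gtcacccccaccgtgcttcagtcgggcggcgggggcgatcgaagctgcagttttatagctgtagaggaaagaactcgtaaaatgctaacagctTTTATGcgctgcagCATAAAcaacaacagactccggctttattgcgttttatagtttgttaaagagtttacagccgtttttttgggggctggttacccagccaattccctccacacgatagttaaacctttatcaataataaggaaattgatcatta
Hoxb4: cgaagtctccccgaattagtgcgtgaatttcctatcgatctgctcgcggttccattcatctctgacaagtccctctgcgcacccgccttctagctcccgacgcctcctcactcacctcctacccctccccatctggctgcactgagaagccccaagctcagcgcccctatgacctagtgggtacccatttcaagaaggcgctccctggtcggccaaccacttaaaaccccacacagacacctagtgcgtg
Hoxa7 held 2 matches, starting 236 and 173 bases before the start site, and Hoxb8 held 2, starting 157 and 143 bases before it. Of the 9 entries for genes higher in mid 1 held the motif, as did 1 of the 2 for genes lower in mid, beside 10.8% of the 32851 promoters in the table. A match is a run of letters and was not tested as a binding site.

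Some other transcription factors of the gut also differed between the regions. Of 26 such genes that passed, 6 were higher and 4 lower in mid, and the median log2 fold change was 0.12. Of the 26, 2 were under 1 FPKM in every proximal library and 2 in every mid library, and of the other 22 members 4 were higher and 2 lower. Foxd2 and Foxa2 were under 1 FPKM in every proximal library and Osr2 and Tbx3 in every mid library, so each could pass the filter through the other group alone. Osr2, a zinc-finger factor, was at 0, 0 and 0.0141 FPKM in mid and 14.4, 9.9995 and 7.21 FPKM in proximal libraries (-3.47 ± 0.16, limma adjusted p 5.98e-10). Tbx3, a T-box factor, had the same pattern with 0, 0 and 0.0155 FPKM in mid and 6.94, 5.41 and 5.25 FPKM in proximal libraries. Both were all but absent from mid organoids and present in every proximal library. Foxd2, a forkhead factor, was at 18.1, 15.2 and 12.1 FPKM in mid and 0.447, 0.0893 and 0.0461 FPKM in proximal libraries (3.76 ± 0.19, limma adjusted p 1.34e-09), and Foxa2, a forkhead factor of endoderm, rose by 2.7 ± 0.22 from a proximal mean of 0.298 ± 0.095 FPKM. The caudal genes, regulators of intestinal identity, split. Cdx1 stood at 129, 122 and 91.7 FPKM in mid and 77.5, 37.3 and 37.6 FPKM in proximal libraries (1.22 ± 0.24, limma adjusted p 0.00305). Cdx2 stood at 64.7, 58.8 and 42 FPKM in mid and 122, 86.1 and 80.7 FPKM in proximal libraries (-0.79 ± 0.24, limma adjusted p 0.0407), and its adjusted p was 0.0524 to 0.15 when each of the 6 libraries was left out.

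Among protein-coding genes that averaged at least 5 FPKM in one group, 15 with the greatest rise and 15 with the greatest fall are shown in the plot of the largest differences. Beside Hoxb13, Hoxa10, Hoxa13 and Hoxa9, the genes furthest above proximal were mostly enzymes, transporters and secreted proteins. Adh1, an alcohol dehydrogenase, was at 148, 69.8 and 29.2 FPKM in mid and 0.49, 0.87 and 0.348 FPKM in proximal libraries (5.46 ± 0.56, limma adjusted p 6.48e-06). The mid libraries were spread widely for Adh1, yet the lowest of them lay far above every proximal one. B3galt5, a galactosyltransferase that builds carbohydrate chains, was at 48.5, 34.3 and 32.9 and 1.47, 0.165 and 0.136 FPKM. Clic6, of the intracellular chloride channel family, was at 22.2, 20.5 and 22.5 and 0.0329, 0.0473 and 0.0763 FPKM, a 417-fold ratio. Aldh1l1, an enzyme of folate metabolism, was at 20.03, 18.1 and 20.8 and 0.114, 0.0205 and 0.0661 FPKM. For these genes every mid library was high and every proximal library low, with B3galt5 in proximal replicate 1 the nearest to an exception. Thbs4, a secreted matrix protein, had 28.4, 17.3 and 12.3 FPKM in mid and 3 reads in all over the proximal group, a ratio of 1091 with a 95% counting interval of 395 to 5609.8. Cdo1, the cysteine dioxygenase that begins taurine synthesis, was at 24.5, 21.3 and 14.2 and 0.274, 0.253 and 0.327 FPKM. Gsdmc4, a gasdermin, was at 19.4, 20.8 and 23.7 and 0.586, 0.111 and 0.143 FPKM (4.14 ± 0.62, limma adjusted p 0.000301), and since gasdermin C genes are near-identical copies, reads may be split among them. Sval1 rose by 4.02 ± 0.28 to 19.4 ± 6.65 FPKM (SD, n = 3).

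**Figure D3:**
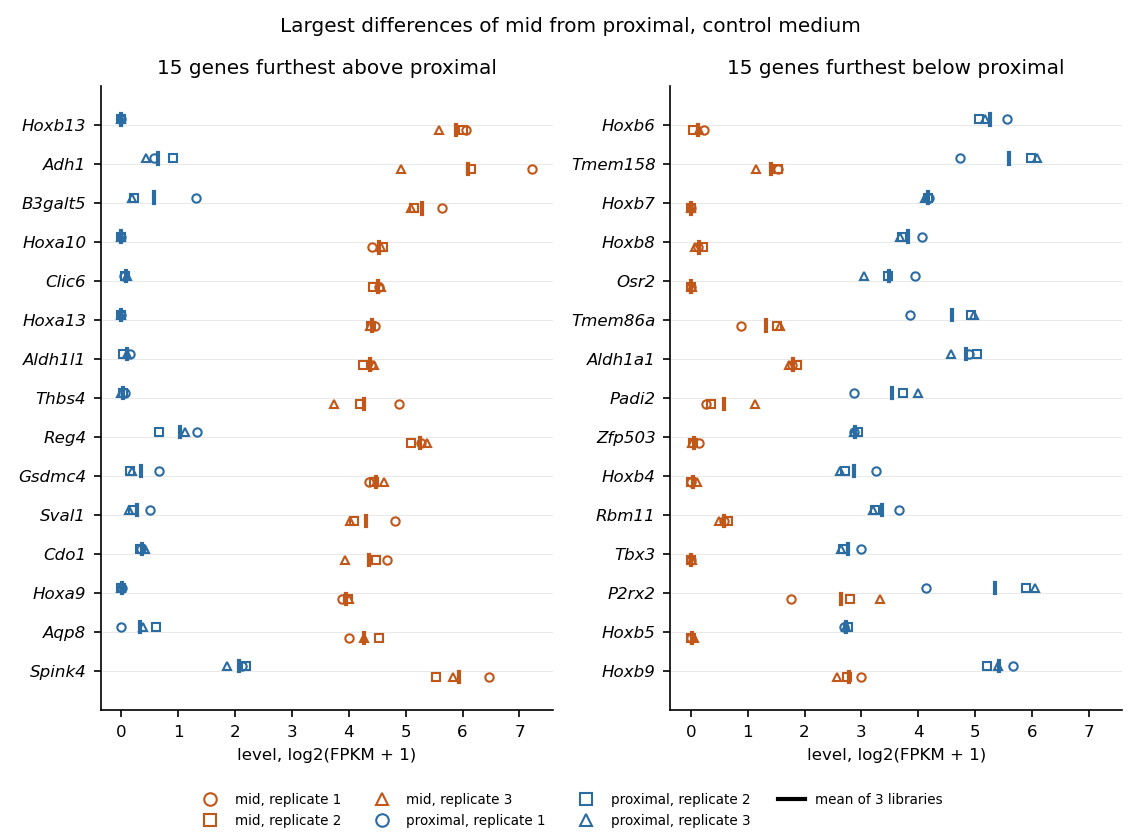
Levels as log2(FPKM + 1) (horizontal axis) of the 15 protein-coding genes furthest above (left) and the 15 furthest below (right) proximal organoids in control medium. Symbols are the 3 mid and 3 proximal libraries, vertical bars group means. In each of the 30 genes the groups do not overlap, which was a condition of the choice, and proximal replicate 1 lies towards mid for Tmem158, Tmem86a, Padi2 and P2rx2.

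The genes furthest below proximal were Hoxb6, Hoxb7, Hoxb8, Hoxb4, Hoxb5 and Hoxb9, Osr2 and Tbx3, and 7 genes of other kinds. Tmem158, a membrane protein, was at 1.91, 1.91 and 1.23 FPKM in mid and 25.6, 61.8 and 66.7 FPKM in proximal libraries (-4.18 ± 0.31, limma adjusted p 1.72e-07). Tmem86a, an enzyme of ether lipid breakdown, was at 0.854, 1.87 and 1.95 and 13.4, 29.5 and 30.7 FPKM. Padi2, which converts arginine in proteins to citrulline, was at 0.208, 0.285 and 1.18 and 6.35, 12.2 and 14.9 FPKM. In each of these genes proximal replicate 1 lay well below the other proximal libraries and still above every mid library. P2rx2, an ATP-gated channel, repeated this with 2.39, 5.99 and 9.03 and 16.6, 58.2 and 65.2 FPKM (-2.73 ± 0.56, limma adjusted p 0.00374). Zfp503, a zinc-finger repressor, was even within each group at 0.101, 0.0242 and 0.0122 and 6.29, 6.66 and 6.32 FPKM, and Rbm11, an RNA-binding protein, was at 0.499, 0.575 and 0.409 and 11.7, 8.38 and 8.24 FPKM.

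The seventh gene, Aldh1a1, belongs to retinoid metabolism, in which vitamin A is oxidised to retinoic acid. Of 9 retinoid genes that passed, 3 were lower in mid, none higher and 6 not called, with a list median of -0.35. A positive fold change was found for 3 of the 9. Aldh1a1, which makes retinoic acid, was at 2.44, 2.66 and 2.32 FPKM in mid and 28.6, 31.8 and 22.8 FPKM in proximal libraries (-3.04 ± 0.26, limma adjusted p 9.8e-07). Stra6, the membrane receptor for retinol uptake, was at 4.05, 5.22 and 5.64 and 20.02, 32.9 and 30.8 FPKM (-2.25 ± 0.28, limma adjusted p 5.7e-05). Cyp26b1, which degrades retinoic acid, was at 1.11, 0.706 and 0.565 and 9.58, 3.17 and 4.44 FPKM (-1.81 ± 0.27, limma adjusted p 0.000297). These 3 genes, a producer, an importer and a degrader of the pathway, were lower in every mid library, and the 3 calls were kept without any one of the 6 libraries. They do not speak for the whole list, whose most abundant gene, Aldh1a3 (up to 128 FPKM in the 6 libraries), was not called.

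Markers taken from the proximal or the distal colon did not behave alike. Of 12 distal colon markers that passed, 9 were higher and none lower in mid organoids, with a median of 1.77, and 9 were called without any one library. Of these 12, 8 were under 1 FPKM in every proximal library and could pass the filter through the mid libraries alone, and of the other 4 members 1 was higher. Beside the Hox genes, Hsd11b2, which shields the mineralocorticoid receptor from glucocorticoids, was at 8.45, 7.61 and 9.35 FPKM in mid and 0.559, 0.277 and 0.422 FPKM in proximal libraries (2.74 ± 0.31, limma adjusted p 1.64e-05). Tgm3, a transglutaminase, was at 5.78, 4 and 5.61 and 0, 0.0112 and 0 FPKM. Of 12 proximal colon markers that passed, 4 were lower (Hoxb6, Osr2, Aldh1a1 and Fabp2) and 3 were higher in mid. Hoxb6 and Osr2 were under 1 FPKM in every mid library and could pass the filter through the proximal libraries alone. Among the other 10 members 3 were higher and 2 lower. Fabp2, a fatty acid binding protein, was at 2.9, 4.02 and 5.1 FPKM in mid and 22.7, 26.4 and 21.2 FPKM in proximal libraries (-2.31 ± 0.29, limma adjusted p 6.09e-05). The 3 proximal markers higher in mid were Ang4, Hao2 and, outside the rule for named genes, Ccl6. The call of Hao2 was lost without mid replicates 1 or 2 or proximal replicates 2 or 3 (limma adjusted p up to 0.141). Car1, a carbonic anhydrase used as a proximal marker, was at 916, 1196 and 864 FPKM in mid and 1170.5, 371 and 247 FPKM in proximal libraries (1.04 ± 0.42, limma adjusted p 0.112). Proximal replicate 1 was as high as the mid libraries for Car1 and the other proximal libraries were lower than all of them. These marker lists were drawn up with earlier results of these data known, so their direction is not independent evidence.

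Goblet cell genes were higher in mid organoids. Of 18 that passed, 11 were higher and 1 lower, with a median log2 fold change of 1.61, and 11 or 12 were called when any one library was left out. Every proximal library was under 1 FPKM for 1 of the 18, which could pass the filter through the mid libraries alone. Among the other 17 members 10 were higher and 1 lower. Reg4, a lectin of the deep crypt secretory cells of the colon, was at 37.4, 33.3 and 40.6 FPKM in mid and 1.51, 0.589 and 1.17 FPKM in proximal libraries (4.21 ± 0.64, limma adjusted p 0.00031). Spink4, a peptidase inhibitor made in goblet cells, was at 86.8, 45.4 and 56.2 and 3.37, 3.59 and 2.63 FPKM (3.88 ± 0.33, limma adjusted p 7.53e-07). Klk1, a kallikrein protease, was at 20.5, 12.1 and 15.6 and 1.37, 1.03 and 1.05 FPKM. For each of these genes the lowest mid library lay several-fold above the highest proximal one. Zg16, a mucus lectin, was at 14.6, 16.7 and 21 and 6.7, 1.33 and 0.57 FPKM, with proximal replicate 1 well above the other proximal libraries. Ang4, an antimicrobial ribonuclease (2.55 ± 0.4), and Creb3l1, a factor of the secretory pathway (2.28 ± 0.26), were also higher. Muc2, the main mucin of colonic mucus, was at 8.81, 3.88 and 7.55 FPKM in mid and 7, 1.55 and 2.52 FPKM in proximal libraries, which overlapped (0.84 ± 0.36, limma adjusted p 0.134).

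Enteroendocrine genes pointed the same way. Of 22 listed only 6 passed the filter, and 5 of the 6 were higher in mid, with a median of 1.54. A member could pass through the mid libraries alone, so the share says little by itself. Pyy, the peptide YY hormone, was at 14.7, 8.02 and 17.9 FPKM in mid and 0, 0 and 0.189 FPKM in proximal libraries, with 515 reads over the mid group and 2 over the proximal group (ratio 214, 95% counting interval 63.5 to 1909). Chgb, a granule protein, was at 7.32, 4.85 and 6.79 and 0.751, 0.642 and 2.53 FPKM (1.74 ± 0.34, limma adjusted p 0.00277). Insl5, a hormone of colonic L cells, was at 3.73, 2.12 and 1.49 FPKM in mid and had no proximal read. Gcg, which encodes the glucagon-like peptides (1.35 ± 0.23), and Chga (1.32 ± 0.26) had mid means of 1.92 ± 0.705 and 1.9 ± 0.283 FPKM. Pyy and Insl5 were thus near 0 in all 3 proximal libraries and low but present in all 3 mid libraries. Only 8 of the 22 listed genes reached 1 FPKM in any of the 6 libraries. Of 16 tuft cell genes only Ptgs1 passed, and it was lower in mid (-1.39 ± 0.24, limma adjusted p 0.000903). Ptgs1 was under 1 FPKM in every mid library and passed through the proximal libraries alone, so its direction says little about tuft cells.

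Colonocyte genes were partly higher in mid. Of 27 that passed, 10 were higher and 1 lower, with a median of 0.90. Every proximal library was under 1 FPKM for 2 of the 27, Aqp8 included, which could pass the filter through the mid libraries alone. Among the other 25 members 8 were higher and 1 lower. Lypd8, a secreted protein that keeps bacteria off the epithelium, was at 755, 933 and 1179 FPKM in mid and 284, 192 and 192 FPKM in proximal libraries (2.1 ± 0.36, limma adjusted p 0.00103). Aqp8, a water channel of surface colonocytes, was at 14.9, 22.1 and 18.2 and 0, 0.527 and 0.302 FPKM (3.93 ± 0.32, limma adjusted p 4.19e-07). Ceacam20, a microvillus protein (1.64 ± 0.24), Muc3, a membrane mucin (1.57 ± 0.32), and Ggh, a folate hydrolase (1.42 ± 0.28), were higher as well. Krt20, the keratin of mature surface cells, was at 28, 36.8 and 55.3 FPKM in mid and 56.5, 41.3 and 34.3 FPKM in proximal libraries, and the groups overlapped (-0.16 ± 0.51, limma adjusted p 0.879). Alpi, the intestinal alkaline phosphatase, was lower in mid at 1.24, 2.4 and 2.94 against 14.6, 5.4 and 5.6 FPKM (-1.49 ± 0.43, limma adjusted p 0.0298), a call lost without mid replicate 1, mid replicate 2 or proximal replicate 1 (adjusted p up to 0.127).

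Genes of ion and water transport showed 9 higher and 2 lower of 23, with a median of 0.39. Under 1 FPKM in every proximal library were 4 of them, Fxyd4 included, which could pass the filter through the mid libraries alone. Of the other 19 members 5 were higher and 2 lower. Of the 23, 7 were called without mid replicate 1 or without proximal replicate 2, and 8 to 11 without any other of the 6 libraries. Aqp4, a basolateral water channel, was at 55.6, 43.4 and 34 FPKM in mid and 7.56, 3.58 and 4.4 FPKM in proximal libraries (2.9 ± 0.53, limma adjusted p 0.00169). Fxyd4, a regulator of the sodium pump, was at 3.32, 1.78 and 2.72 and 0.0329, 0.118 and 0.244 FPKM (1.65 ± 0.24, limma adjusted p 0.000183). Cftr, the chloride channel of secretion, went the other way at 6.38, 5.63 and 6.27 FPKM in mid and 15.4, 18.1 and 17.3 FPKM in proximal libraries (-1.34 ± 0.39, limma adjusted p 0.0305). No mid library reached the lowest proximal level of Cftr, but its call was kept only without proximal replicate 1, with adjusted p-values up to 0.0991 without any other of the 6.

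Mucosal defence genes were partly higher in mid. Of 17 that passed, 9 were higher and 1 lower, with a median of 1.23. Of the 17, 6 were under 1 FPKM in every proximal library, Ccl28, Cxcl5 and Saa1 among them, and could pass through the mid libraries alone. Another 1 was under 1 FPKM in every mid library, and of the other 10 members 4 were higher and none lower. Nox1, the NADPH oxidase of the colon epithelium, was at 51.8, 45.9 and 28.9 FPKM in mid and 5.62, 1.23 and 1.86 FPKM in proximal libraries (3.59 ± 0.33, limma adjusted p 2.31e-06). Ccl28, a mucosal chemokine, was at 11.4, 9.7 and 9.39 and 0.797, 0.325 and 0.247 FPKM (2.95 ± 0.18, limma adjusted p 1.22e-08). Cxcl5, a neutrophil chemokine, was at 5.75, 9.32 and 12 and 0.276, 0.596 and 0.417 FPKM, and Saa1, an acute-phase protein, at 4.25, 9.81 and 5.29 and 0.0519, 0.205 and 0.0241 FPKM. In these genes every mid library lay several-fold above every proximal one. Interferon response and antigen presentation genes gave 1 higher (Psmb10, 0.76 ± 0.14) and 1 lower (Tap1, -0.66 ± 0.17) of 16 (12.5%, beside 14.4% of all genes tested). The call of Tap1 was lost without mid replicate 3 or proximal replicate 2 (adjusted p up to 0.0873).

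Proliferation genes leaned towards mid, and how many of them were called rested on single libraries. The mean log2(FPKM + 1) over 29 DNA replication genes was 3.62, 3.78 and 3.43 in mid replicates 1 to 3 and 3.05, 2.47 and 2.21 in proximal replicates 1 to 3. All 29 had a positive fold change, with a median of 1.08, and 15 were called higher. Over 29 mitosis and spindle genes the means were 3.92, 4.0 and 3.64 in mid and 3.34, 2.44 and 2.16 in proximal libraries, the median was 1.22, and 7 were called higher. Proximal replicate 1 lay between the other proximal libraries and the mid libraries in both lists, and no proximal library reached the lowest mid library. Called DNA replication genes numbered 6 without mid replicate 1, 4 without mid replicate 2, 13 without mid replicate 3, 21 without proximal replicate 1, 5 without proximal replicate 2 and 4 without proximal replicate 3. The median fold change over the list stayed at 0.84 to 1.33 across these 6 fits. For mitosis the count was 0 without mid replicate 1, mid replicate 2, proximal replicate 2 or proximal replicate 3, 3 without mid replicate 3, 18 without proximal replicate 1, and 0 with a pseudocount of 0.1, while the median was 0.96 to 1.61 without any one of the 6 libraries. Fitted on the mid and proximal control libraries alone, each list had 23 called, and without proximal replicate 1 of the differentiation medium each had 28. Gmnn, which restrains origin licensing, was at 20.5, 23.3 and 17.4 FPKM in mid and 11.5, 6.98 and 7.87 FPKM in proximal libraries (1.15 ± 0.25, limma adjusted p 0.00565) and was called without any one library. Mki67, the standard marker of dividing cells, was at 33.1, 38.4 and 30.8 and 19.3, 10.4 and 8.81 FPKM (1.41 ± 0.59, limma adjusted p 0.128). Its groups did not overlap but the difference did not pass the test.

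Inhibitors of the cell cycle and p53 targets went the other way, with 7 of 18 lower in mid, none higher and a median of -0.47. Mdm2, the p53 ubiquitin ligase and target, was at 19.2, 18.1 and 16.6 FPKM in mid and 29.7, 28 and 25.8 FPKM in proximal libraries (-0.61 ± 0.13, limma adjusted p 0.00596), and the groups were well apart. Zmat3 (-0.85 ± 0.21) and Phlda3 (-0.73 ± 0.18), both p53 targets, were called with adjusted p-values up to 0.0565 and 0.0753 when 1 library was left out, Zmat3 losing the call without mid replicate 2 or proximal replicate 3 and Phlda3 without mid replicate 3 or proximal replicate 2. The list's count was 4 without mid replicate 1, 3 without mid replicate 2, 2 without mid replicate 3, 6 without proximal replicate 1, 2 without proximal replicate 2 and 4 without proximal replicate 3.

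**Figure D4:**
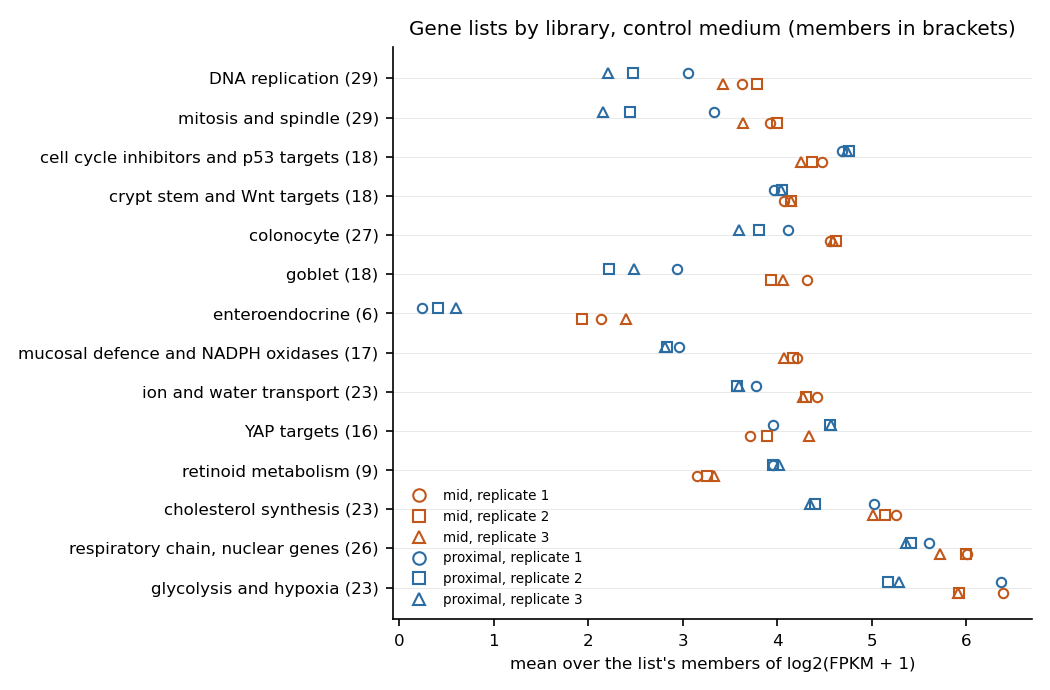
Mean of log2(FPKM + 1) over the members of 14 gene lists that passed the filter (horizontal axis) in each control-medium library, with the number of members in brackets. Mid libraries lie above proximal ones for replication, mitosis, goblet, enteroendocrine and defence genes and below them for p53 targets and retinoid genes, and proximal replicate 1 lies nearest mid for replication, mitosis, cholesterol and glycolysis genes.

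Crypt stem cell and Wnt target genes showed no common direction. Of 18 that passed, 4 were higher and 1 lower, and the median was -0.03, with either sign when 1 library was left out. Every proximal library was under 1 FPKM for 1 of the 18, Smoc2, which could pass the filter through the mid libraries alone. Among the other 17 members 3 were higher and 1 lower. The 5 calls became 2 without proximal replicate 2 and 3 without mid replicate 1, mid replicate 2 or proximal replicate 3. Smoc2, a secreted crypt-base protein, was at 5.51, 4.65 and 3.89 FPKM in mid and 0.731, 0.672 and 0.464 FPKM in proximal libraries (1.8 ± 0.12, limma adjusted p 2.83e-08). Lgr5, the stem cell receptor, was at 5.05, 4.62 and 4.15 and 3.39, 2.92 and 3 FPKM (0.45 ± 0.1, limma adjusted p 0.00594). Both were higher in every mid library. Ascl2 (0.86 ± 0.24) and Slc12a2 (1.15 ± 0.29) lost their calls in some settings, Ascl2 without mid replicate 2 or proximal replicates 2 or 3 (adjusted p up to 0.132) and Slc12a2 without mid replicate 1 or proximal replicate 2 (up to 0.07). Prom1 was lower in mid (-0.7 ± 0.22, limma adjusted p 0.0462), a call kept only without proximal replicate 1 (adjusted p up to 0.171 otherwise).

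Ligands and receptors that steer crypt cells changed one by one. In the list of Wnt, EGF and Notch ligands and receptors, 2 were higher and 5 lower of 19, and the 7 calls became 4 without mid replicate 1 and 3 without proximal replicate 3. Every proximal library was under 1 FPKM for 2 of the 19, Dll4 included, which could pass the filter through the mid libraries alone. Another 1 was under 1 FPKM in every mid library. Among the other 16 members none was higher and 4 were lower. Ereg, an EGF family ligand, was at 2.24, 3.01 and 3 FPKM in mid and 11.6, 11 and 12.4 FPKM in proximal libraries (-1.76 ± 0.21, limma adjusted p 3.41e-05). The Notch ligand Dll4 was at 2.4, 2.18 and 2.67 and 0.601, 0.348 and 0.574 FPKM (1.18 ± 0.18, limma adjusted p 0.000283), while Jag1, another Notch ligand, was lower in mid at 10.1, 10.6 and 17.6 against 26.1, 30.2 and 32.4 FPKM (-1.18 ± 0.29). The call of Jag1 was lost without mid replicate 1, mid replicate 2 or proximal replicate 3 (adjusted p up to 0.0608). Among BMP and TGF-beta targets, 4 of 15 were higher and none lower, and 2 were higher without mid replicate 2, proximal replicate 2 or proximal replicate 3. Id1, a direct BMP target, was at 18.9, 27.6 and 25.4 FPKM in mid and 9.81, 8.22 and 6.75 FPKM in proximal libraries (1.43 ± 0.17, limma adjusted p 3.56e-05), and Bambi, a BMP pseudoreceptor, was higher by 0.83 ± 0.17.

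Squamous and cornification genes changed in both directions, with 6 higher and 2 lower of 14. Every proximal library was under 1 FPKM for 3 of the 14, which could pass the filter through the mid libraries alone. Among the other 11 members 3 were higher and 2 lower. The 8 calls became 5 without any one mid library, 3 without proximal replicate 2 and 4 without proximal replicate 3. Krt23 was at 11.8, 10.5 and 10.1 FPKM in mid and 43.8, 60.3 and 71.1 FPKM in proximal libraries (-2.31 ± 0.28, limma adjusted p 3.26e-05). Krt4, an abundant keratin of stratified epithelia, was at 131, 143 and 141 and 463, 599.7 and 609 FPKM (-1.99 ± 0.52, limma adjusted p 0.0178), a call lost without mid replicates 1 or 2 or proximal replicates 2 or 3 (adjusted p up to 0.0661). Sprr2a1, an envelope protein with near-identical copies among which reads may be split, was at 48.3, 77.5 and 48.3 and 12.2, 6.46 and 5.71 FPKM (2.72 ± 0.39, limma adjusted p 0.000173). Targets of YAP gave 5 lower and none higher of 16, with a median of -0.42. That count was 1 without mid replicate 2, proximal replicate 2 or proximal replicate 3, 2 without mid replicate 1, 3 without mid replicate 3, and 3 after scaling to total reads. Arhgef17 was the YAP target with the firmest call (-1.1 ± 0.19, limma adjusted p 0.00112, kept without any one library). Regenerative and fetal-like genes gave 2 higher and 1 lower of 21 (14.3%, beside 14.4% of all genes tested). They gave 1 higher and 5 lower without proximal replicate 1, 3 higher and 4 lower with the replicate number as a block, and 3 higher and 5 lower when only the mid and proximal control libraries were fitted. Spp1, osteopontin, was at 61.5, 70.8 and 58.7 FPKM in mid and 16.2, 7.05 and 14.5 FPKM in proximal libraries (2.32 ± 0.45, limma adjusted p 0.00256).

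Cholesterol synthesis genes were moderately higher in mid. Of 23 that passed, 10 were higher and 1 lower, with a median of 0.59. Dhcr7, which completes cholesterol, was at 20.5, 19.5 and 18.4 FPKM in mid and 12.8, 6.03 and 5.23 FPKM in proximal libraries (1.27 ± 0.22, limma adjusted p 0.000893). Mvd, of the mevalonate pathway, was at 75.1, 69.7 and 56.9 and 52.2, 30.5 and 29.4 FPKM (0.87 ± 0.18, limma adjusted p 0.00356), and Idi1, the next enzyme, was higher by 0.9 ± 0.17. The mean log2(FPKM + 1) over the list was 5.26, 5.14 and 5.01 in mid libraries and 5.02, 4.39 and 4.34 in proximal replicates 1 to 3. Proximal replicate 1 was thus at the level of mid replicate 3, and 22 members were called without it, against 7 without mid replicate 1, 6 without mid replicate 2, 6 without proximal replicate 2 and 5 without proximal replicate 3.

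Among genes of energy metabolism, all 26 nuclear genes of the respiratory chain had a positive fold change, with a median of 0.45, and 6 (23.1%) were called higher. Sdhd, a subunit of complex II, was at 168, 165 and 130.2 FPKM in mid and 109.9, 90.4 and 89.9 FPKM in proximal libraries (0.67 ± 0.15, limma adjusted p 0.00782) and kept its call without any one library, as did Cox5a (0.58 ± 0.12). The list's count was 3 without mid replicate 1, 2 without mid replicate 2, proximal replicate 2 or proximal replicate 3, and 7 without either other library. It was 14 when only the mid and proximal control libraries were fitted and 16 with the replicate number as a block. Among the 13 mitochondrially encoded genes, 23 glycolysis and hypoxia genes, 30 cytosolic ribosomal protein genes and 24 ribosome biogenesis genes, limma called none, with medians of 0.22, 0.29, -0.09 and 0.06. Of the 23 glycolysis genes 22 had a positive fold change, and 9 were called without proximal replicate 1. Of 21 genes of PPAR signalling and fatty acid oxidation 4 were higher and 2 lower (28.6%). Of 25 xenobiotic genes 3 were higher (12%), and of 11 NAD genes 1 was higher (9.09%, Cd38, 1.0 ± 0.28), beside 14.4% of all genes tested. Every proximal library was under 1 FPKM for 3 of the 25 xenobiotic genes, Abcg2 included, which could pass the filter through the mid libraries alone. Among the other 22, 1 was higher. Without proximal replicate 1 the PPAR, xenobiotic and NAD lists had 10, 8 and 2 members called, and without proximal replicate 2 they had 3, 2 and 0. The PPAR list also had 3 called without mid replicate 1 or proximal replicate 3, the xenobiotic list 2 without mid replicate 1, and the NAD list 0 without mid replicate 1, mid replicate 2 or proximal replicate 3. Abcg2, an efflux pump, was at 1.27, 1.43 and 1.36 and 0.166, 0.119 and 0.0806 FPKM (1.07 ± 0.21, limma adjusted p 0.00267). Naprt, which makes NAD from nicotinic acid, was at 5.02, 5.71 and 3.67 and 4.06, 3.69 and 2.29 FPKM, with overlapping groups (0.42 ± 0.3, limma adjusted p 0.387).

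The same contrast of regions was then taken in the differentiation medium, over the same genes and in libraries that the control-medium contrast does not use. There 3269 genes (28.3%) were called, 1646 higher and 1623 lower in mid, although scaling to total reads turned this split to 1117 and 2148 and shifted the median of all genes from -0.02 to -0.12. Of the calls in control medium 810 (48.6%) were called with the same sign in differentiation medium, which is 24.8% of the calls there, and 63 were called with the opposite sign. Across genes, which are not independent replicates, the fold changes in the media correlated at 0.566. The test of the difference itself called 1287 genes (11.1%), 439 of them among the control-medium calls. In 728 of the 1287 the difference was positive, meaning a contrast further towards mid in control medium, and in 559 negative. That split was 968 and 396 after scaling to total reads, 609 and 707 with TMM factors, and 555 and 634 with voom on recovered reads.

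The Hox boundary was present in both media. All 10 HoxA genes and Hoxb13 were higher, and the other 7 HoxB genes lower, in mid organoids of the differentiation medium too. Hoxb6 differed by -5.11 there and -5.13 in control medium, with a difference of -0.02 ± 0.17 (limma adjusted p 0.949), and Hoxb5 by -2.77 and -2.72. The size changed for 7 of the 18. Hoxa9 differed by 3.95 in control and 2.14 in differentiation medium (difference 1.81 ± 0.24, limma adjusted p 0.000347), and Hoxa13 by 4.4 and 5.76 (difference -1.36 ± 0.12, limma adjusted p 1.07e-05). Osr2 had a wider gap in differentiation medium, at 38.3, 48.1 and 41.8 FPKM in proximal and 0, 0 and 0 FPKM in mid libraries there.

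Some regional gaps were wider in differentiation medium, and the genes described next were chosen for the size of that difference. In the colonocyte list the median was 0.90 in control and 1.42 in differentiation medium, and 6 of 27 members passed the test of the difference, each with a contrast further towards mid in differentiation medium. In the mitochondrially encoded list the median was 0.22 and 1.5, and 6 of 13 passed. In the goblet list it was 1.61 and 0.82, and 2 of 18 passed, 1 in each direction, beside 11.1% of all genes tested. That count was 0 without mid control replicate 2 or proximal control replicates 2 or 3, and 6 without proximal control replicate 1. Aqp8 was at 3109.9, 2107 and 4016 FPKM in mid and 0.191, 0.404 and 0.606 FPKM in proximal differentiation libraries, and its contrast differed between the media by -7.13 ± 0.45 (limma adjusted p 5.88e-07). Tgm3 was at 302, 269 and 387 and 0, 0.0579 and 0.0136 FPKM there, a difference between media of -5.68 ± 0.47 (limma adjusted p 4.98e-06). Nxpe4 (-3.96 ± 0.3), Atp12a, the colonic proton pump (-3.9 ± 0.67), and Slpi, a protease inhibitor (-3.71 ± 0.68), followed. For Aqp8 and Tgm3 every mid differentiation library lay far above every mid control library, and the proximal libraries were low in both media. Lor, a cornified envelope gene, had no called contrast in control medium (-0.48 ± 0.77) and one of 3.58 ± 0.77 in differentiation medium.

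Other regional gaps were wider in the control medium. Nox1, at 3.59 ± 0.33 in control medium, differed by 0.34 ± 0.33 in differentiation medium, where mid libraries had 0.615, 0.379 and 0.0733 FPKM and proximal ones 0.182, 0 and 0 FPKM (difference 3.25 ± 0.47, limma adjusted p 0.000681). Cdo1 had 0.918, 0.763 and 0.443 FPKM in mid and 0, 0.388 and 0.103 FPKM in proximal differentiation libraries (difference 3.44 ± 0.41, limma adjusted p 0.000188). Trf, transferrin (3.07 ± 0.23), Ifitm3, an interferon-induced membrane protein (3.07 ± 0.39), Lgals1, a galectin (2.99 ± 0.54), and Smoc2 (1.79 ± 0.16) showed the same kind of difference. All 6 of these genes were above proximal in every mid control library and under 1 FPKM in every mid and proximal differentiation library. Guca2b, the hormone uroguanylin, reversed, from 0.99 ± 0.36 in control medium, not called, to -2.54 ± 0.36 in differentiation medium (difference 3.54 ± 0.51, limma adjusted p 0.000621). Cholesterol synthesis reversed as well. Mvd differed by 0.87 in control and -1.14 in differentiation medium (difference 2.01 ± 0.25, limma adjusted p 0.00024), Pmvk by 1.0 and -1.11 (its control-medium call was lost without proximal replicate 3, adjusted p 0.0543), and 14 of the 23 genes of the list passed the test of the difference. The list had 10 higher and 1 lower in control medium and 0 higher and 13 lower in differentiation medium. For replication and mitosis, the 15 and 7 higher genes of control medium stood beside none higher in differentiation medium, and 8 and 7 members passed the test of the difference. Proximal differentiation replicate 1 stood apart in both lists, with a mean log2(FPKM + 1) of 2.62 over replication genes against 1.16 and 1.30 in the other proximal and 1.34 to 1.51 in the mid differentiation libraries, and of 2.96 over mitosis genes against 0.78 and 1.11 in the other proximal and 0.97 to 1.34 in the mid ones. Without it the differentiation-medium medians went from -0.28 to 0.24 for replication and from -0.49 to 0.18 for mitosis, with 3 and 1 members higher, and 7 and 2 members passed the test of the difference. Without any other of the 12 libraries 3 to 13 replication genes and 1 to 17 mitosis genes passed it.

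**Figure D5:**
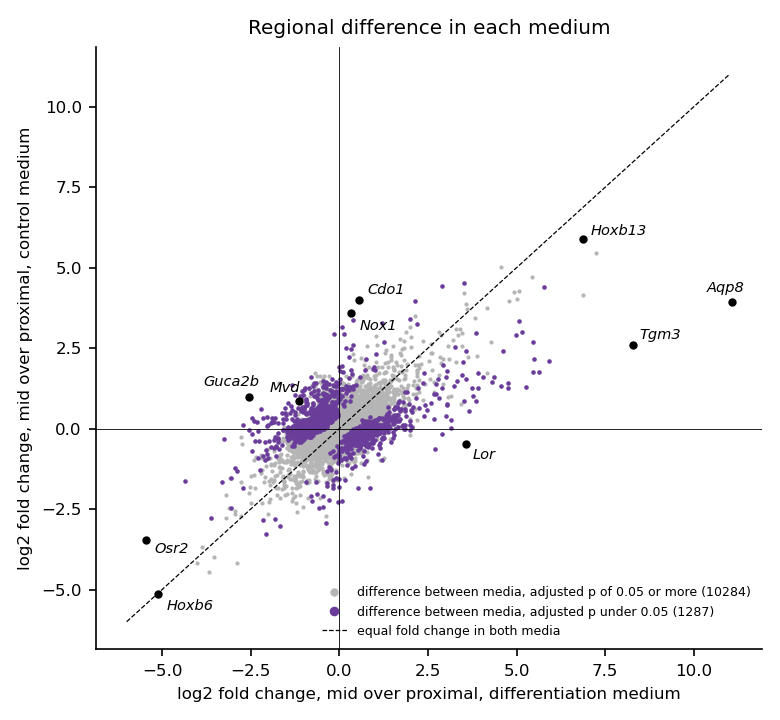
Log2 fold change of mid over proximal organoids (difference of log2(FPKM + 1)) in control medium (vertical axis) against that in differentiation medium (horizontal axis), 1 point for each of the 11571 genes, with 10 genes named. Purple points are the 1287 genes whose contrast differed between the media. Hoxb6 lies on the dashed line of equal change and Hoxb13 to its right, with a difference between media of -0.98, Aqp8 and Tgm3 far to its right, and Nox1 and Cdo1 near 0 on the horizontal axis.

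Few genes separated mid from distal organoids in control medium. A contrast of mid with distal in the same fit, added after the values had been seen, called 27 genes (0.233%), 22 higher and 5 lower in mid, and both contrasts use the same mid libraries. The HoxA genes and Hoxb13 were not among the 27, with Hoxb13 at 61.4, 80.3 and 56 FPKM and Hoxa10 at 16.7, 21.2 and 21.3 FPKM in the distal libraries. Of the 27, 12 were higher in mid than in both other regions. Foxd2 was one of them, at 4.94, 6.1 and 4.1 FPKM in distal libraries against 18.1, 15.2 and 12.1 FPKM in mid (mid minus distal 1.41 ± 0.19, limma adjusted p 0.00343). Smoc2 was another, at 1.86, 1.88 and 1.81 FPKM in distal libraries (mid minus distal 0.99 ± 0.12, limma adjusted p 0.00139). Lgr5 also belonged to them, at 3.13, 3.06 and 2.65 FPKM in distal libraries, a smaller step (0.51 ± 0.1, limma adjusted p 0.0492). Rdx, radixin, was the gene furthest below distal in mid, with 1.39 ± 0.202 FPKM in mid, 16.2 ± 0.514 FPKM in distal and 0.327 ± 0.0838 FPKM in proximal libraries (SD, n = 3).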

How the data were processed

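RNA of mouse colon organoids was sequenced after poly-A selection, per the labels' protocols, which do not settle whether strand was kept. The authors deposited FPKM per gene and library with gene positions, per the file headers, and the submitters' processing notes name HISAT2 2.0.5, featureCounts 1.5.0-p3 and the build mm39. The scaling of libraries and the annotation release are not given in the sources used here. All deposited FPKM, once multiplied by gene length, were whole multiples of 1 step per library within 0.001 of a read, so read counts could be recovered. Reads served for depth, for a floor of 3 reads over a group without reads, for intervals (exact binomial, 95%, counting error only) and for 2 alternatives (TMM factors, voom). The 6 mean columns of the authors were not tested.

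Samples were grouped by region and medium from their labels. Genes with at least 1 FPKM in at least 3 of the 6 libraries compared were tested as log2(FPKM + 1) with limma 3.58.1 in R 4.3.3, with 1 mean per group over all 18 libraries, 12 residual degrees of freedom, a mean-variance trend, two-sided moderated tests, Benjamini-Hochberg adjustment over 11571 genes and a threshold of 0.05. Contrasts were mid minus proximal in each medium, the difference between these (interaction), and, added after the values were seen, mid minus distal. Errors are SE of the fit or SD over 3 libraries. The test was also run on simulated data with errors drawn independently for each gene and library. That run does not cover a shift shared by many genes of 1 library. Python 3.11.15 with numpy 2.4.6, pandas 2.3.3 and matplotlib 3.10.9 made tables and plots.

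The members, gene lists and rules were chosen with earlier results of these data known. Named genes were the 15 protein-coding genes furthest in each direction (called, no overlap, mean of at least 5 FPKM in a group), up to 6 called members of each list by size of change, all Hox genes that passed, 12 fixed genes (among them Mki67, Lgr5, Car1, Aqp8, Krt20, Muc2, Osr2, Cdx2, Naprt, Slc5a8 and Hcar2) and the 6 with the largest difference between media in each direction. Lists were described by counts and medians, without a test. Slc5a8 and Hcar2 did not pass the filter, and 5 genes that the rule names are not reported here. Alternatives were another pseudocount (0.1), other filters, scalings and samples in the fit, the replicate number as a block, voom, and leaving out each library.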

Additional observations from a re-analysis of the deposited data

Results flagged for a closer look

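For 51 of the genes named, the contrast of mid with proximal organoids differed between control and differentiation medium by the interaction term in limma at an adjusted p under 0.05. Each value below is the control-medium contrast minus the differentiation-medium contrast, on the log2(FPKM + 1) scale, with 3 libraries in each of the 4 groups. Scaling to total reads raises the median of this difference over all genes from 0.03 to 0.12.

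Among positional and other transcription factors, the difference was 1.06 for Hoxa7, 1.81 for Hoxa9, 1.02 for Hoxa10 and 1.1 for Hoxa11, but -1.36 for Hoxa13 and -0.98 for Hoxb13. In the central HoxB cluster it was -1.0 for Hoxb4. It was 1.97 for Osr2, 1.44 for Foxa2 and -0.68 for Zfp503.

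Negative values, a contrast further towards mid in differentiation medium, were found for these genes, named for a called difference or as list members. They were -7.13 for Aqp8, -5.68 for Tgm3, -4.06 for Lor, -3.96 for Nxpe4, -3.9 for Atp12a and -3.71 for Slpi. They were -3.34 for Hao2, -3.34 for Ggh, -2.75 for Saa1, -2.18 for Insl5, -2.02 for Cyp2c68, -1.64 for Abcg2 and -0.91 for Ccl28. Guca2b, at 3.54, and Clic6, at 1.54, were positive.

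Retinoid genes were negative too, and their gap towards proximal in control medium was smaller in differentiation medium, with -2.34 for Stra6, -1.81 for Cyp26b1 and -1.36 for Aldh1a1. Padi2 (-2.57), Tmem86a (-1.21) and Fzd2 (-0.74) did the same, and Rbm11 had 0.84.

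Positive values were found for the dividing-cell genes named, for which proximal differentiation replicate 1 stood above the other libraries of its group, with 2.39 for Rrm2, 2.24 for Cdk1, 2.07 for Birc5, 1.83 for Bub1, 1.75 for Lig1, 1.67 for Hells, 1.47 for Ttk and 1.47 for Nuf2. Smoc2 had 1.79, Dll4 0.97 and Lgr5 0.48. Metabolic and other genes wider towards mid in control medium were Pmvk (2.11), Mvd (2.01), Idi1 (1.41), Cdo1 (3.44), Nox1 (3.25), Trf (3.07), Ifitm3 (3.07) and Lgals1 (2.99).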

How the results depend on the processing

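No named gene that was called changed sign under any alternative, while Krt20, not called, did. The split of the difference between media, 728 positive and 559 negative, turned with TMM factors, with voom and, at 678 and 710, with no filter. Of 157 named genes 150 were called in control medium, and 91 of them kept the call under every alternative, 93 when each of the 6 libraries was left out. The 1668 genes called in control medium became 998 when only genes at 5 FPKM or more in 3 libraries were tested, a setting that tests 7372 genes. Leaving out 1 library gave 913 to 1957 for the control-medium libraries and 2116 without proximal replicate 1 of the differentiation medium. Without 1 library the differentiation-medium count was 2397 to 3116 (3269 in full) and the count for the difference between media 734 to 1502 (1287 in full). With 1 of the 6 control-medium libraries left out, 4 to 21 DNA replication genes (15 in full) and 0 to 18 mitosis genes (7 in full) were called in control medium. The same fits called 2 to 5 crypt and Wnt genes (5 in full) and 9 to 13 colonocyte genes (11 in full). Without proximal replicate 1 of the differentiation medium, 28 replication and 28 mitosis genes were called. Fitted on the groups compared alone, 23 replication and 23 mitosis genes were called. The labels share replicate numbers 1 to 3 across regions. Deviations of same-numbered mid and proximal libraries correlated at 0.43, 0.002 and 0.40, and not every library correlated best with its own number. With 3 libraries a group these values cannot decide whether the numbers are pairs, and the main fit did not take them as pairs. With the replicate block, 1937, 3469 and 1450 genes were called in control medium, differentiation medium and the difference, and 11 mitosis genes. Depth was 13090322 to 18504587 reads in the 6 libraries, and a group without reads was compared at a floor of 3 reads.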

Other observations

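Non-coding genes and pseudogenes made up 134 of the 1668 genes called. Foxd2os, an RNA next to Foxd2 and chosen after its values were seen, had 5.16 ± 0.879 FPKM in mid and 0.0801 ± 0.0553 FPKM in proximal libraries (SD, n = 3). Small intestine and Paneth cell markers split, with 3 higher and 2 lower of the 9 that passed. Every proximal library was under 1 FPKM for 1 of the 9 (Lyz1) and every mid library for another 1. Each of these could pass the filter through the other group alone. Among the other 7 members 2 were higher and 2 lower. Lyz1, the Paneth cell lysozyme, was at 3.38, 5.99 and 11.3 FPKM in mid and 0.0509, 0.183 and 0.473 FPKM in proximal libraries (2.56 ± 0.59, limma adjusted p 0.00909), and Slc5a1, the sodium-glucose cotransporter, at 13.6, 11.4 and 9.71 and 5.75, 1.61 and 1.14 FPKM (1.9 ± 0.38, limma adjusted p 0.00333). Mid libraries were higher than proximal ones throughout for both genes. Apob, the lipoprotein component, was higher as well at 4.34, 10.3 and 21.5 against 0.96, 2.72 and 1.57 FPKM, a call lost without mid replicate 3 (adjusted p 0.0568). Of 28 integrin, laminin and junction genes 2 were lower and none higher (7.14%, beside 14.4% of all genes tested). Neither of the 2 was called without mid replicates 1 or 2 or proximal replicates 2 or 3.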
